A study of Mus musculus with 2 samples.

Results

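Il17a, Ccl20 and Defb1 are 3 of the 480 genes on a custom imaging panel, grouped because all act in the immune defence of the skin barrier. They were chosen by name, with their ratios between the 2 sections below already known, so those ratios are a description and support nothing. Every transcript assigned to one of these names with a decoding score of at least 20 was counted. The data are Xenium measurements, in which single RNA molecules are decoded in place in a tissue slice. 1 section came from Utx-cKO skin and 1 from WT control skin, both whole skin of female B6/129 mice after normal development, without treatment, cut at 5 µm from fixed, paraffin-embedded blocks. In the Utx-cKO line the histone demethylase gene Kdm6a (Utx) is deleted by Krt14-Cre in tissues that express keratin 14. The labels state neither the age of the mice, nor how many contributed to a section, nor the body site.

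Interleukin 17A, the product of Il17a, is a cytokine made mainly by T cells, among them gamma-delta T cells of the skin, and acts on keratinocytes through a receptor on their surface. Keratinocytes that receive this signal are known to make more Ccl20, a chemokine that draws cells bearing the receptor Ccr6, including Il17a-producing T cells. Defb1 encodes a beta-defensin, a small antimicrobial peptide that many epithelia make without an inflammatory stimulus.

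Bases before the transcription start of Il17a and Ccl20 are shown because these 2 genes had nearly the same ratio between sections. Their log2 ratios of Utx-cKO over WT were 0.89 and 0.91, and that of the negative control probes, which have no target, was 0.82. Shared regulation of the 2 genes was not tested. Each window is 250 bases long, read 5′ to 3′ on the plus strand from RefSeq (GRCm38.p6), at chr1:20730655-20730904 for Il17a and chr1:83116516-83116765 for Ccl20. Capitals mark matches on either strand to a short form of the NF-kappaB site (GGG and CC with any 5 bases between them), to AGGTCA, the half-site of ROR receptors, and to TATAA.
Il17a: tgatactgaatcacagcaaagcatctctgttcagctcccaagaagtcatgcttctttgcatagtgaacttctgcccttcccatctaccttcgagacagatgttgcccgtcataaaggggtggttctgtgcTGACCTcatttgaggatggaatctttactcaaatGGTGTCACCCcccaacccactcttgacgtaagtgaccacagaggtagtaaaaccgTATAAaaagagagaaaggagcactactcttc
Ccl20: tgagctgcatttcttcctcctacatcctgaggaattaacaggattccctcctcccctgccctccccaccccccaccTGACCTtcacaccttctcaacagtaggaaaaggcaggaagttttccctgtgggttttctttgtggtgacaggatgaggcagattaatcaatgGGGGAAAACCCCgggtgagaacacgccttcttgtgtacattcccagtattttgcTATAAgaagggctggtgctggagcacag
Of 32851 mouse promoter windows of this length, 45.8% held the NF-kappaB form, 14% AGGTCA and 22.8% TATAA. Il17a held 1 match to each motif. Ccl20 held 3 overlapping matches to the NF-kappaB form and 1 match to each of the other motifs. These are matches of letters and no measurement of binding. Defb1 has no window here.

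Segmentation gave 52308 cells in Utx-cKO and 40371 in WT. Gene transcripts that passed the score numbered 2875112 in Utx-cKO and 3540184 in WT, and 84.9% of them in Utx-cKO and 74.7% in WT were inside cells. A cell was kept if it had 20 transcripts or more, which left 37395 cells in Utx-cKO (median 48 transcripts) and 33263 in WT (median 62). Krt5, a keratin of the epidermis, was abundant in both sections at 18208 CPM in Utx-cKO and 18500 CPM in WT, where CPM is the count scaled to the same total of panel transcripts. Kdm6a itself had 2381 CPM in Utx-cKO and 2771 CPM in WT, and since the positions of its probes are not given here, these levels do not check the deletion. Each section lies on its slide as 4 separate strips of tissue, numbered here by position. With 1 section per group no difference can be tested, and the intervals below are exact 95% intervals that cover counting error and no difference between mice or strips. 2 cell identifiers occurred in both sections.

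Over all kept cells each of the 3 genes stood above each single negative control probe, which has no target in the tissue, and Il17a did so by the least. In kept cells, Il17a had 783 transcripts in Utx-cKO and 475 in WT. Ccl20 had 1161 in Utx-cKO and 695 in WT. Defb1 had 2315 in Utx-cKO and 2903 in WT. The 20 control probes had a median of 8.5 transcripts in Utx-cKO and 5 in WT, and 2 probes stood far above the others, with 180 and 163 transcripts in Utx-cKO and 108 each in WT. The next probe had 17 in Utx-cKO and 12 in WT. Il17a exceeded the highest probe 4.35 times in Utx-cKO (3.69 to 5.14) and 4.40 times in WT (3.56 to 5.47). Ccl20 exceeded it 6.45 times in Utx-cKO and 6.44 times in WT. Defb1 exceeded it 12.9 times in Utx-cKO and 26.9 times in WT. Against the median probe, the excess of Il17a was 92.1 times in Utx-cKO and 95.0 times in WT. 15 panel genes in Utx-cKO and 9 in WT did not exceed the highest probe. Among the least counted genes were Uty and Kdm5d, which lie on the Y chromosome that female mice lack. Uty had 57 transcripts in Utx-cKO and 50 in WT. Kdm5d had 49 in Utx-cKO and 43 in WT. Il17a lay above both, yet among all 480 genes its count of transcripts, which also depends on each gene's probes, ranked only 339 in Utx-cKO and 379 in WT.

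The decoding of Il17a and Ccl20 was of ordinary or lower quality for this panel, and that of Defb1 was of high quality. Of 1343 decoded Il17a transcripts in Utx-cKO, 73.5% passed the score, and of 793 in WT, 69.4% did. For Ccl20 the share was 67.7% in Utx-cKO and 61.3% in WT. For Defb1 it was 86.5% in Utx-cKO and 89.2% in WT. Over all gene transcripts it was 78.4% in Utx-cKO and 80.4% in WT, and over the control probes 13.4% in Utx-cKO and 10.4% in WT. The probes were thus mostly removed by the score, and all 3 genes mostly kept.

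The 3 genes differed in where their transcripts lay within cells. Of Il17a transcripts in cells, 81.9% (79.4 to 84.3) lay over a nucleus in Utx-cKO and 83.4% (80.0 to 86.5) in WT, which ranked 28 in Utx-cKO and 17 in WT among the 480 genes. The Ccl20 share was 72.7% in Utx-cKO and 76.4% in WT. Defb1 had 55.2% in Utx-cKO and 51.0% in WT, near the middle of the panel. The median gene had 61.0% in Utx-cKO and 57.8% in WT, and the pooled control probes 65.8% (61.7 to 69.7) in Utx-cKO and 75.8% (70.8 to 80.3) in WT. Genes with few transcripts had high nuclear shares in general, as the plot of nuclear share against abundance shows. What part this has in the Il17a counts was not tested.

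**Figure D1:**
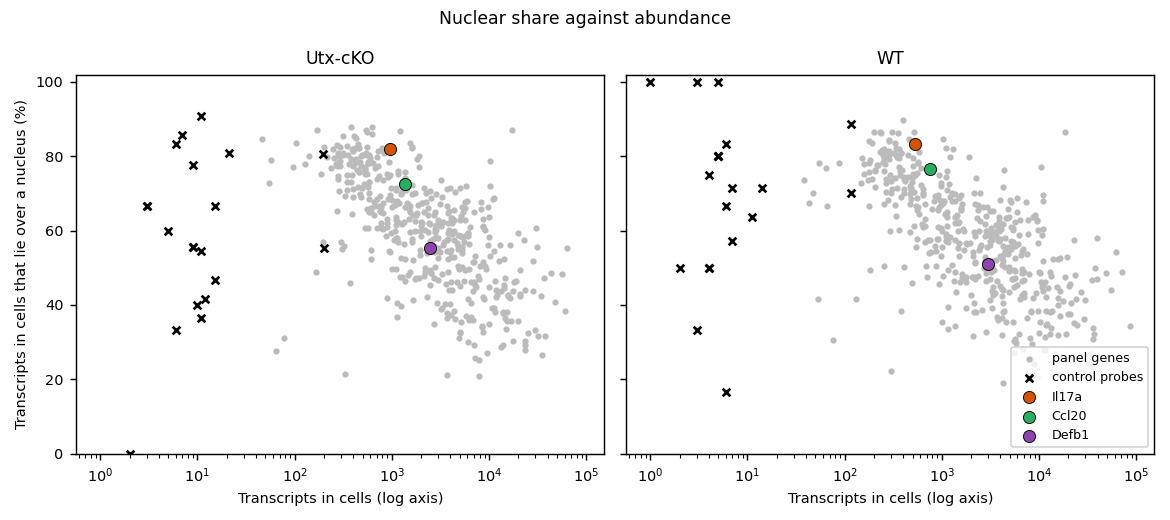
Share of transcripts in cells that lie over a nucleus (%) against the number of transcripts in cells (log axis), in Utx-cKO (left) and WT (right), for panel genes (grey), control probes (crosses) and the 3 genes (coloured). Il17a sits at 81.9% in Utx-cKO and 83.4% in WT, among other genes of low count, and Defb1 at 55.2% in Utx-cKO and 51.0% in WT, in the body of the panel.

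To find the source cells, kept cells were clustered on the other 477 genes, so that the 3 genes had no part in making the clusters. This gave 14 clusters, of which 7 were epithelial by their keratinocyte markers. Macrophage-like, fibroblast-like, basal and granular keratinocyte-like, sebocyte-like and upper hair follicle-like clusters could be named, and the others are called by their leading genes. No cluster was named for T cells.

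Il17a was spread over all clusters and was not concentrated in one. In Utx-cKO it ranged over clusters between 129 and 639 CPM, with a median of 360. In WT it ranged between 87.0 and 304 CPM, with a median of 193. The highest cluster stood 1.77 times above the median cluster in Utx-cKO and 1.58 times in WT, whereas the median panel gene reached 4.72 times in Utx-cKO and 5.40 times in WT. By this measure Il17a was the gene of rank 52 from the most even of 464 in Utx-cKO, and of rank 36 of 453 in WT. Macrophage-like cells, led by C1qa and Cd68, had the highest level in Utx-cKO, 639 CPM (529 to 764), against 212 CPM (155 to 283) in WT. The same cluster had the highest Cd3e level in Utx-cKO, 1256 CPM (1100 to 1428), against 1181 CPM in WT. The cluster led by Myh11 and Vwf had 584 CPM of Il17a (475 to 711) and 356 CPM of Cd3e in Utx-cKO. In WT, Cd3e was highest in basal keratinocyte-like cells, at 2320 CPM, where Il17a had 240 CPM. In a split chosen after seeing the data, Il17a within the macrophage-like cluster was compared between cells with and without a Cd3 transcript. In Utx-cKO it had 824 CPM in the former, from 13 transcripts, and 623 CPM in the latter, a ratio of 1.32 (0.68 to 2.36). The ratio was 1.72 (0.60 to 4.08) in WT, from 6 transcripts. Both intervals include 1. In WT the highest level was that of upper hair follicle-like cells, 304 CPM, a value that rests on 22 transcripts, against 406 CPM in Utx-cKO. Granular keratinocyte-like cells had the lowest level in Utx-cKO, 129 CPM, against 95.0 CPM in WT. Epithelial clusters held 44.3% of Il17a transcripts in Utx-cKO and 40.4% in WT, below their share of all transcripts, 58.4% in Utx-cKO and 47.9% in WT. The pooled control probes had another profile. They were highest in granular keratinocyte-like cells, at 467 CPM in Utx-cKO and 226 CPM in WT, where Il17a was low.

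Ccl20 had its highest level in the upper hair follicle-like cells, which are led by Sprr1a, Krt79 and Rbp2. Their Ccl20 level was 1975 CPM (1751 to 2219) in Utx-cKO and 982 CPM (767 to 1239) in WT. The other clusters lay between 249 and 751 CPM in Utx-cKO and between 88.2 and 404 CPM in WT. Upper hair follicle-like cells held 24.3% of Ccl20 transcripts in Utx-cKO and 10.2% in WT, so most Ccl20 lay in other clusters. The follicle-like cluster itself differed in size, with 2532 cells in Utx-cKO and 1047 in WT. It held 6.26% of all gene transcripts in Utx-cKO and 2.81% in WT. Basal keratinocyte-like cells held 13.3% of Ccl20 transcripts in Utx-cKO and 13.1% in WT, beside 10.6% and 8.76% of all gene transcripts. Macrophage-like cells held 12.1% of Ccl20 transcripts in Utx-cKO and 10.4% in WT, beside 8.17% and 8.44% of all gene transcripts. Macrophage-like cells had 751 CPM (632 to 887) in Utx-cKO and 332 CPM in WT, and basal keratinocyte-like cells 638 CPM (541 to 747) in Utx-cKO and 404 CPM in WT. Outside the follicle the intervals of these and other neighbouring clusters overlapped.

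Defb1 was mostly found in the epithelium, with 87.3% of its transcripts in epithelial clusters in Utx-cKO and 90.8% in WT. Upper hair follicle-like cells had 4720 CPM (4371 to 5091) in Utx-cKO and 5810 CPM (5268 to 6394) in WT. Granular keratinocyte-like cells, the last living layer of the epidermis, followed with 2702 CPM in Utx-cKO and 3877 CPM in WT. Basal keratinocyte-like cells had 1541 CPM in Utx-cKO and 2653 CPM in WT. The cluster led by Krt1, Wnt3 and Krt77 had 1320 CPM in Utx-cKO and 2577 CPM in WT. Sebocyte-like cells had less, 431 CPM in Utx-cKO and 777 CPM in WT. Not all epithelial clusters were high. The cluster led by Krt17, Serpinb11 and Lhx2 had 372 CPM in Utx-cKO and 435 CPM in WT, and that led by Serpinb11, Ptgds and Lhx2 had 173 CPM in Utx-cKO, the lowest of all clusters, and 148 CPM in WT. Every non-epithelial cluster was at or below 435 CPM in Utx-cKO and 268 CPM in WT. Ccl20 and Defb1 thus shared their highest cluster, and Defb1 alone was also high in the epidermal clusters.

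**Figure D2:**
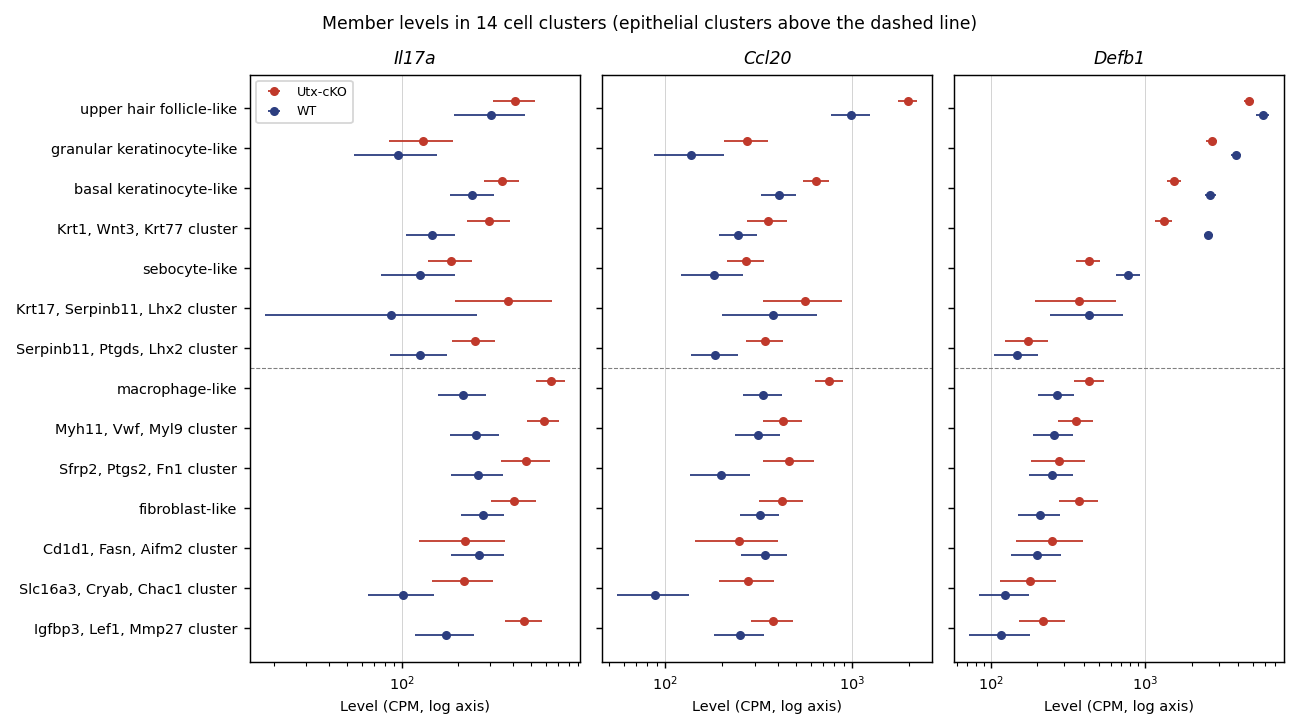
Levels (CPM, log axis) of Il17a, Ccl20 and Defb1 in 14 clusters, with Utx-cKO points above WT points in each row and bars for exact 95% counting intervals. Il17a varies little between clusters, Ccl20 peaks in upper hair follicle-like cells at 1975 CPM in Utx-cKO and 982 CPM in WT, and Defb1 is highest in the 4 upper epithelial rows.

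Counts within single cells separated the genes further. Il17a was found in 774 cells in Utx-cKO and 470 in WT, and a second transcript was present in only 9 of them in Utx-cKO and 5 in WT. No cell held 3. The highest control probe had a like pattern, with a second transcript in 3 of 177 cells in Utx-cKO and 0 of 108 in WT. Ccl20 was found in 1031 cells in Utx-cKO and 661 in WT. 27 cells in Utx-cKO and 4 in WT held at least 3 Ccl20 transcripts, and the fullest held 11 in Utx-cKO and 7 in WT. Of these cells, 22 in Utx-cKO and 3 in WT were upper hair follicle-like, and 20 of the 27 lay in strip 3 of the Utx-cKO section. Defb1 was found in 1888 cells in Utx-cKO and 2241 in WT, with at least 3 transcripts in 82 in Utx-cKO and 137 in WT. Strip 3 of each section held most of these, 55 in Utx-cKO and 118 in WT. Ccl20 and Defb1 thus had cells that carried several transcripts, and Il17a had almost none.

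T cells are the known source of Il17a, so its level was compared between cells with and without a transcript of Cd3d, Cd3e or Cd3g, the signalling chains of the T cell receptor. Such cells numbered 1566 in Utx-cKO and 1765 in WT. In Utx-cKO, Il17a had 386 CPM in them, from 40 transcripts, and 342 CPM in the other cells, a ratio of 1.13 (0.80 to 1.55). In WT it had 206 CPM in them, from 31 transcripts, and 184 CPM in the other cells, a ratio of 1.12 (0.75 to 1.62). Both intervals include 1. They held 5.11% of Il17a transcripts in Utx-cKO and 6.53% in WT, beside 4.55% of all gene transcripts in Utx-cKO and 5.86% in WT.

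Other T cell genes except Irf4 were higher in the same cells, by differing factors, as the plot of ratios for cells with Cd3 transcripts shows. Cd8a, the co-receptor of cytotoxic T cells, was 10.4 times higher in Utx-cKO and 12.1 times in WT. Prf1, which encodes perforin, was 6.24 times higher in Utx-cKO and 15.4 times in WT. Ctla4, an inhibitory receptor, was 4.21 times higher in Utx-cKO and 3.40 times in WT. Gzmb had a ratio of 5.16 (3.84 to 6.86) in Utx-cKO and 2.03 (1.29 to 3.06) in WT. Thy1 had less, 2.08 in Utx-cKO and 1.75 in WT. The pooled control probes had ratios of 1.00 in both sections. Irf4, a transcription factor that other immune cells also use, had 0.98 in Utx-cKO and 0.82 in WT. Irf4 was also among the leading genes of the non-epithelial cluster led by Sfrp2, Ptgs2 and Fn1. Ccl20 had 0.98 in Utx-cKO and 1.30 in WT, with intervals that include 1. Defb1 had 1.40 (1.18 to 1.66) in Utx-cKO and 1.84 (1.62 to 2.07) in WT. Cd3e had 1097 CPM in the basal keratinocyte-like cluster in Utx-cKO and 2320 CPM in WT, its highest level there, and whether those transcripts were assigned to the right cells was not tested. With at least 2 Cd3 transcripts required, 330 cells remained in Utx-cKO and 569 in WT, and the Il17a ratio was 1.16 (0.53 to 2.22) in Utx-cKO and 0.88 (0.38 to 1.75) in WT. At this depth no excess of Il17a in cells with Cd3 transcripts was detectable.

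**Figure D3:**
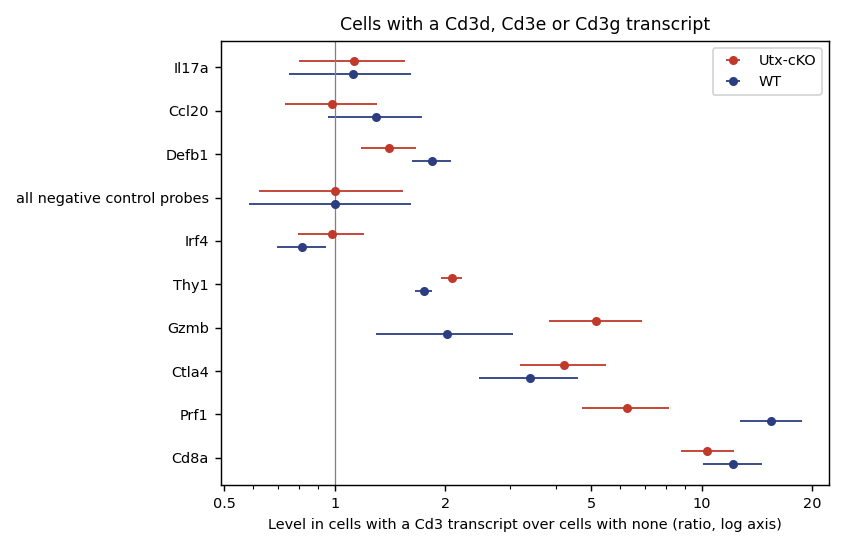
Level in cells with a Cd3d, Cd3e or Cd3g transcript over the level in cells with none (ratio, log axis), for the 3 genes, the pooled control probes and 6 genes of the T cell list. Bars are exact 95% counting intervals, and Utx-cKO points lie above WT points. Cd8a stands at 10.4 in Utx-cKO and 12.1 in WT, and Il17a at 1.13 in Utx-cKO and 1.12 in WT, beside the probes at 1.00.

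Transcripts of 2 of the genes in 1 cell were then counted. Cells with Ccl20 had an Il17a level of 512 CPM in Utx-cKO, against 338 CPM in cells without Ccl20, a ratio of 1.51 (1.05 to 2.11) that rests on 35 cells with both. In WT the ratio was 1.21 (0.64 to 2.09), from 13 cells with both. Defb1 was 2.01 times higher (1.68 to 2.38) in cells with Ccl20 in Utx-cKO and 1.31 times (1.05 to 1.62) in WT. Il17a was lower in cells with Defb1, with ratios of 0.72 (0.52 to 0.98) in Utx-cKO and 0.76 (0.53 to 1.05) in WT. Cells with Ccl20 thus had more Defb1 than other cells in both sections, and more Il17a in Utx-cKO by a margin that counting error nearly covers. In each section the intervals of the 2 ratios for cells with Ccl20 overlapped.

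Ccl20 lay nearer to Il17a than transcripts in general, by a modest factor that many panel genes shared. Nearness was measured as the share of a gene's transcripts within 20 µm of any Il17a transcript, over the same share of all gene transcripts. In Utx-cKO, 22.3% of Ccl20 transcripts and 16.4% of all transcripts lay that near, a ratio of 1.35 (1.22 to 1.49). In WT, 15.6% of Ccl20 and 9.93% of all transcripts did, a ratio of 1.57 (1.32 to 1.85). Among genes with at least 200 transcripts, Ccl20 ranked 40 of 467 in Utx-cKO and 51 of 457 in WT, and Defb1 had nearly the same ratios, 1.31 in Utx-cKO and 1.58 in WT. The control probes had 1.05 (0.87 to 1.24) in Utx-cKO and 1.36 (1.04 to 1.75) in WT. Of the T cell genes in Utx-cKO, Cd3d had 1.03 (0.85 to 1.23), Cd3e 1.26 (1.12 to 1.40) and Cd3g 1.14 (0.98 to 1.31). In WT, Cd3d had 1.42 (1.13 to 1.76), Cd3e 1.38 (1.22 to 1.56) and Cd3g 1.40 (1.21 to 1.61). Ctla4 had 0.88 in Utx-cKO and 1.01 in WT. Within 10 µm the Ccl20 ratio was 1.43 (1.19 to 1.69) in Utx-cKO and 2.08 (1.59 to 2.67) in WT, where it rests on 56 Ccl20 transcripts. Within 50 µm it was 1.21 in Utx-cKO and 1.19 in WT. With upper hair follicle-like cells left out it was 1.14 (1.00 to 1.30) in Utx-cKO and 1.36 (1.11 to 1.65) in WT. Among non-epithelial cells alone it was 1.16 (0.92 to 1.43) in Utx-cKO and 1.22 (0.85 to 1.68) in WT, with intervals that include 1.

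The genes nearest to Il17a included genes of the hair follicle. Ranked over both sections, they were Sprr1a, a cornified envelope precursor (1.58 in Utx-cKO and 2.60 in WT), Lef1, a transcription factor of the hair follicle (1.60 in Utx-cKO and 2.32 in WT), and Krt79, a keratin of the upper follicle (1.5 in Utx-cKO and 2.33 in WT). Sostdc1 and Rbp2 followed. Around Ccl20 the leading genes were Sprr1a (2.36 in Utx-cKO and 2.96 in WT), Krt79, Cldn4, Rbp2 and Krt17, all of them among the leading genes of the upper hair follicle-like cluster. Around Defb1 they were Sprr1a (2.64 in Utx-cKO and 3.01 in WT), Pla2g2f, Lce1m, Hal and Calm4, mostly genes of the differentiated epidermis.

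Seen from Ccl20, Il17a was not among the nearest genes. Its ratio within 20 µm of Ccl20 was 1.14 (1.02 to 1.27), rank 169 of 467, in Utx-cKO and 1.39, rank 125 of 457, in WT. Defb1 had 1.59, rank 18, in Utx-cKO and 1.97, rank 10, in WT. The median distance of an Il17a transcript to the nearest Ccl20 transcript was 37.7 µm in Utx-cKO, where it was 41.3 µm for all gene transcripts and 38.7 µm for control probes. In WT it was 49.2 µm, beside 56.1 µm for all gene transcripts and 51.0 µm for control probes. Il17a ranked 167 of 467 in Utx-cKO and 202 of 457 in WT by this distance, in the middle of the panel. Defb1 lay a median of 30.2 µm from Ccl20 in Utx-cKO and 34.8 µm in WT, with ranks of 35 in Utx-cKO and 7 in WT. The distances themselves depend on how many Ccl20 transcripts each section holds and are compared within a section only.

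**Figure D4:**
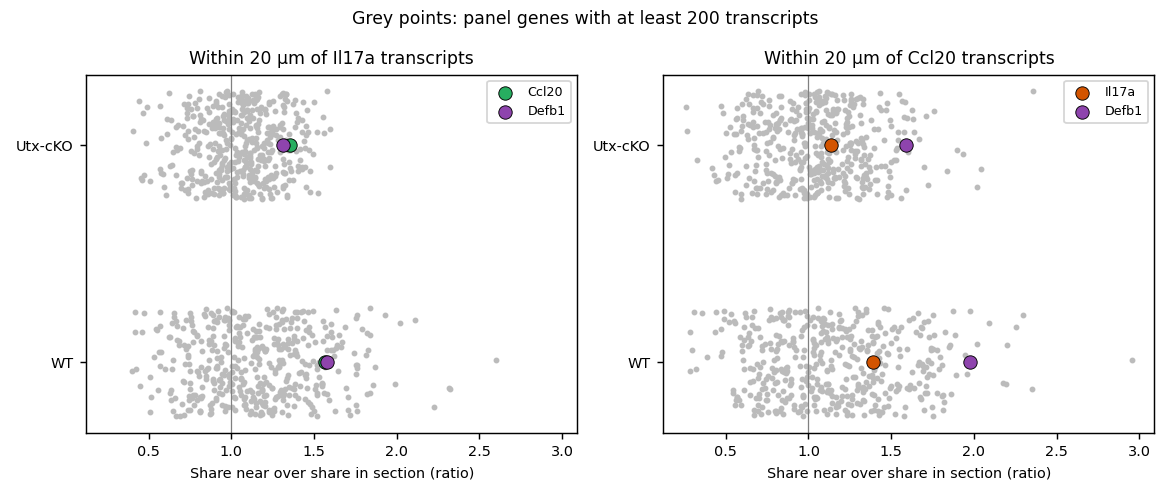
Share of each gene's transcripts within 20 µm of Il17a (left) or Ccl20 (right) over the same share of all gene transcripts (ratio), with Utx-cKO above WT, panel genes of at least 200 transcripts in grey and the 3 genes coloured. Ccl20 stands at 1.35 in Utx-cKO and 1.57 in WT around Il17a, within the range of other genes, and Il17a at 1.14 in Utx-cKO and 1.39 in WT around Ccl20.

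Positions relative to 2 named cell classes differed between the genes. The median Defb1 transcript lay 43.2 µm from a granular keratinocyte-like cell in Utx-cKO and 15.9 µm in WT. Ccl20 lay 84.2 µm away in Utx-cKO and 75.7 µm in WT, and Il17a 112 µm in Utx-cKO and 89.3 µm in WT. All gene transcripts lay 113 µm away in Utx-cKO and 121 µm in WT. From an upper hair follicle-like cell the median distance was 23.1 µm in Utx-cKO and 41.9 µm in WT for Defb1, and 45.4 µm in Utx-cKO and 76.5 µm in WT for Ccl20. For Il17a it was 70.5 µm in Utx-cKO, beside 74.7 µm for all gene transcripts, and 88.3 µm in WT, beside 116 µm. Il17a thus lay about as far from both classes as transcripts in general in Utx-cKO, and somewhat nearer in WT.

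Likeness of profile was measured over 28 points, 14 clusters in each section, as Pearson's r of log2(CPM + 10). The points share 2 sections and their depths, so r is a description. Most like Il17a were Cxcl3 (0.89), Chil4 (0.88), Slco1a5 (0.86), Stfa2 (0.84) and Elovl2 (0.84). Cxcl3 encodes a neutrophil chemokine. Most like Ccl20 were Ccl22, another chemokine (0.81), Slc7a11 (0.79), Krt7 (0.78), Sprr2a1 (0.75) and Sprr2e (0.74). Most like Defb1 were Dsc1 (0.95), Ivl (0.95), Krt77 (0.93), Pla2g2f (0.93) and Flg2 (0.93), of which Dsc1, Ivl and Flg2 encode proteins of the upper epidermis. Il17a and Ccl20 had an r of 0.69, Ccl20 and Defb1 0.41, and Il17a and Defb1 -0.04.

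Between the sections, Il17a and Ccl20 were higher in Utx-cKO and Defb1 was nearly level over all cells. Il17a had 343 CPM (320 to 368) in Utx-cKO and 185 CPM (169 to 202) in WT, a log2 ratio of 0.89 (0.73 to 1.06). Ccl20 had 509 CPM (480 to 539) in Utx-cKO and 271 CPM (251 to 292) in WT, a log2 ratio of 0.91 (0.77 to 1.05). Defb1 had 1015 CPM (974 to 1057) in Utx-cKO and 1130 CPM (1090 to 1172) in WT, a log2 ratio of -0.16 (-0.24 to -0.08). Of 471 genes with at least 200 transcripts, 15.1% were at least 1.5 times higher in Utx-cKO, 2.55% at least as much lower and 17.6% either, with a median log2 ratio of 0.10. The control probes moved the same way as Il17a and Ccl20. Their pooled level was 211 CPM in Utx-cKO and 120 CPM in WT, a log2 ratio of 0.82 (0.61 to 1.03). Set against the probes in place of the panel total, the log2 ratio was 0.07 for Il17a, 0.09 for Ccl20 and -0.98 for Defb1. The part of this background in the ratios was not tested. Uty and Kdm5d, the Y-linked genes, each had a log2 ratio of 0.36, with intervals of -0.21 to 0.94 and -0.26 to 0.98.

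The strips of tissue show how far single values reach. Il17a had 373, 264, 334 and 385 CPM in strips 1 to 4 of Utx-cKO, and 101, 266, 181 and 296 CPM in strips 1 to 4 of WT. The ranges overlapped, with strip 1 of WT far below the rest. Ccl20 had 468, 366, 576 and 517 CPM in strips 1 to 4 of Utx-cKO, and 171, 409, 262 and 390 CPM in those of WT. These overlapped too, since strips 2 and 4 of WT lay above strip 2 of Utx-cKO. Defb1 had 921, 473, 1221 and 1072 CPM in strips 1 to 4 of Utx-cKO, and 533, 798, 1846 and 956 CPM in those of WT. Strip 3 was the highest for Defb1 in both sections, and the ranges overlapped widely. Without strip 3 of WT the Defb1 log2 ratio was 0.52, of the opposite sign. Over all cells, 2.34% of genes had every Utx-cKO strip above every WT strip and 0.849% every one below, and none of the 3 genes was among them. The pooled control probes also varied by strip, with 321, 227, 158 and 184 CPM in Utx-cKO and 73.2, 246, 131 and 116 CPM in WT.

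**Figure D5:**
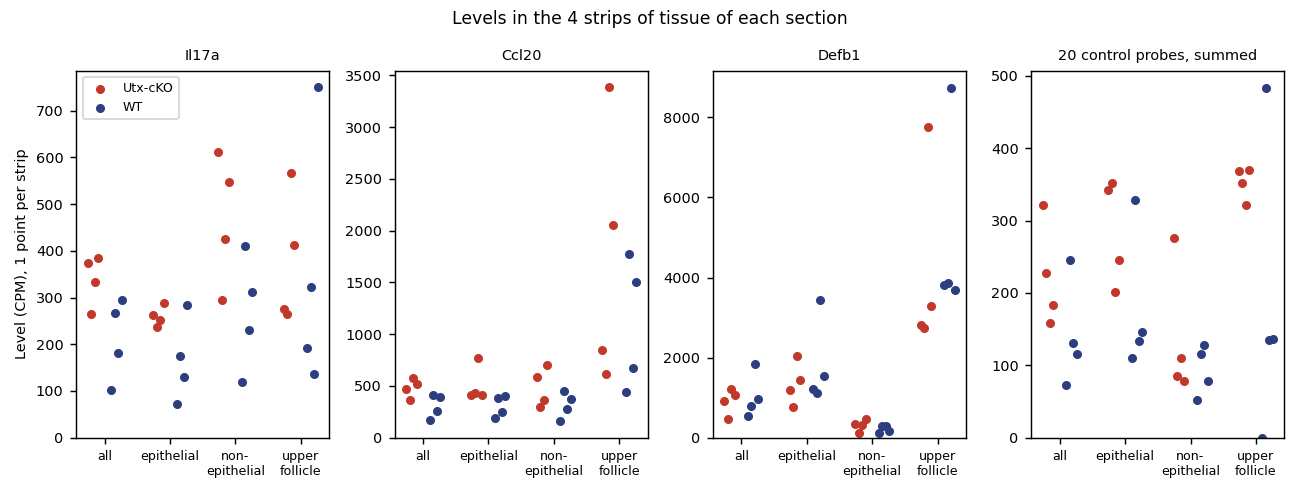
Levels (CPM) in each of the 4 strips of tissue per section for Il17a, Ccl20, Defb1 and the pooled control probes, in all, epithelial, non-epithelial and upper hair follicle-like cells, with Utx-cKO left of WT and points in strip order. Strips of the sections overlap everywhere except for Ccl20 in epithelial cells, where Utx-cKO strips start at 409 CPM and WT strips end at 405 CPM.

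In epithelial cells Ccl20 had 551 CPM in Utx-cKO and 285 CPM in WT, a log2 ratio of 0.95 (0.76 to 1.14). Its strips had 412, 427, 770 and 409 CPM in Utx-cKO and 191, 382, 246 and 405 CPM in WT. They did not overlap, by a narrow margin, as was the case for 3.64% of 439 genes in that direction and 3.87% in the other. This set was singled out after its values were seen, and without strip 3 of Utx-cKO the log2 ratio was 0.54. Il17a in epithelial cells had 261 CPM in Utx-cKO and 156 CPM in WT, a log2 ratio of 0.74 (0.48 to 1.00). The pooled control probes there, a sum over all probes, had 269 CPM in Utx-cKO and 154 CPM in WT, with a log2 ratio of 0.81 (0.55 to 1.07). That sum was about the level of Il17a, whereas the highest single probe had 114 CPM in Utx-cKO and 64.2 CPM in WT. Within the epithelium, 13% of the genes compared passed 1.5-fold upwards in Utx-cKO and 3.19% downwards. Defb1 in epithelial cells had 1518 CPM in Utx-cKO and 2143 CPM in WT, a log2 ratio of -0.50 (-0.58 to -0.41). Its strips there overlapped, with 779 to 2045 CPM in Utx-cKO and 1126 to 3450 CPM in WT. Without strip 3 of WT this ratio turned to 0.19.

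By cluster, Defb1 was lower in Utx-cKO, over its whole interval, in 5 epithelial groups of cells. Log2 ratios were -0.97 (-1.18 to -0.76) in the cluster led by Krt1, -0.85 (-1.22 to -0.48) in sebocyte-like, -0.78 (-0.97 to -0.59) in basal keratinocyte-like, -0.52 (-0.69 to -0.35) in granular keratinocyte-like and -0.30 (-0.48 to -0.12) in upper hair follicle-like cells. The last of these was -0.08 with a score of at least 30 and also over nuclei alone, 0.32 without strip 3 of WT and 0.018 without strip 1 of Utx-cKO. For the other clusters no strip was left out. Over all epithelial cells together, the Defb1 ratio was 0.19 without strip 3 of WT. Outside the epithelium Defb1 was higher in Utx-cKO in every cluster, and in 3 of them the whole interval was on that side. These were the fibroblast-like cells, with 374 CPM in Utx-cKO and 208 CPM in WT, the macrophage-like cells, with 435 CPM in Utx-cKO and 268 CPM in WT, and the cluster led by Igfbp3 and Lef1, with 217 CPM in Utx-cKO and 117 CPM in WT. The control probes, in the same order of clusters, had 191, 177 and 163 CPM in Utx-cKO, against 104, 83.0 and 94.8 CPM in WT. Their part in these values was not tested.

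In non-epithelial cells Il17a had 459 CPM in Utx-cKO and 211 CPM in WT. The log2 ratio was 1.12 (0.90 to 1.34), rank 3 of 450 genes, of which 22.4% were at least 1.5 times higher in Utx-cKO. The strips overlapped, with 611, 296, 425 and 547 CPM in Utx-cKO and 118, 410, 231 and 311 CPM in WT, while 1.56% of genes had every Utx-cKO strip on top there. Ccl20 there had 449 CPM in Utx-cKO and 257 CPM in WT, a log2 ratio of 0.81 (0.60 to 1.02). Defb1 had 309 CPM in Utx-cKO and 200 CPM in WT, a log2 ratio of 0.63 (0.38 to 0.87). The control probes in the same cells had 0.57 (0.19 to 0.94). Over clusters, Il17a was higher in Utx-cKO in 13 of 14, with an interval above 0 in 9, and the same counts held for Ccl20. The pooled control probes were higher in Utx-cKO in 12 of 14 clusters, with an interval above 0 in 5. In macrophage-like cells the Il17a log2 ratio was 1.59 (1.09 to 2.11), from 119 transcripts in Utx-cKO and 46 in WT.

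Upper hair follicle-like cells, where the Ccl20 level was highest, had a Ccl20 log2 ratio of 1.01 (0.63 to 1.40), from 282 transcripts in Utx-cKO and 71 in WT. Of 241 genes compared in these cells, 18.7% were at least 1.5 times higher in Utx-cKO and 11.2% lower, and the control probes had a log2 ratio of 1.08 (0.15 to 2.12), from 50 transcripts in Utx-cKO and 12 in WT. The strips had 848, 617, 3383 and 2058 CPM in Utx-cKO and 446, 1771, 677 and 1504 CPM in WT. They overlapped, and strip 3 of Utx-cKO stood above all others. In these cells 2.07% of genes had every Utx-cKO strip above every WT strip and 5.39% every one below. Without strip 3 of Utx-cKO the Ccl20 log2 ratio was 0.22. Il17a in these cells rested on 58 transcripts in Utx-cKO and 22 in WT, with a log2 ratio of 0.42 (-0.31 to 1.19).

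Other genes of the pathway are given from lists whose members were chosen by function, over all cells, where 15.1% of all genes passed 1.5-fold upwards in Utx-cKO and 2.55% downwards. On mean counts per cell, a scale added for these lists after seeing the data, 0 of the cytokines, induced chemokines, antimicrobial genes and T cell genes stayed past 1.5-fold upwards, Il17a and Ccl20 included, and of the stress genes 2 did, Krt16 and Sprr1b. On that scale 4 of the T cell genes and 2 of the other chemokines passed it downwards. Of the cytokines that make up or induce the IL-17 response, 4 were on the panel, and 2 were at least 1.5 times higher in Utx-cKO, Il17a and Il1a (0.60). Il1b, which helps to induce Il17a, had 0.00, and Il18 -0.10. The median of the list was 0.30, beside 0.10 over all genes. Among receptors, Il1r2, a decoy receptor of interleukin 1, was lower in Utx-cKO (-0.94), and Ccr6, the receptor of Ccl20, is not on the panel. Of 3 chemokines that IL-17 induces, 2 passed 1.5-fold, Ccl20 and Cxcl2 (0.88), and Cxcl3 had 0.46. 5 other chemokines had 0 past 1.5-fold either way, with a median of -0.20.

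Of 7 antimicrobial genes measured, 3 were at least 1.5 times higher in Utx-cKO and 0 lower, with a median of 0.52. Slpi, a secreted protease inhibitor, had 0.70, Pglyrp3, a peptidoglycan recognition protein, 0.66, and Defb4, an inducible beta-defensin, 0.64. Defb3, also inducible, had 0.52, S100a7a 0.32, Defb1 -0.16 and Lcn2 -0.19. Defb3 had 96.9 CPM in Utx-cKO and 67.4 CPM in WT, and Defb4 98.6 CPM in Utx-cKO and 63.5 CPM in WT. These lie below the pooled control probes, at 211 CPM in Utx-cKO and 120 CPM in WT, and so do Slpi, Cxcl2, Sprr1b, Sprr2d and Ctla4 in both sections. The pooled level is a sum over all control probes and is no like measure for a single gene. The highest single probe had 78.89 CPM in Utx-cKO and 42.05 CPM in WT, and each of these genes lay above it in both sections. The part of background in their ratios was not tested. Of 5 keratinocyte genes of stress or wounding, 4 were at least 1.5 times higher in Utx-cKO, with a median of 0.88. They were Krt16 (1.13), Sprr1b (1.02), Krt17 (0.88) and Sprr2d (0.66), and Krt6b had 0.26. Of 9 T cell genes, 2 were at least 1.5 times higher, Cd8a (0.63) and Ctla4 (0.60), with a median of -0.19. The T cell receptor chains Cd3d, Cd3e and Cd3g had 0.21, -0.38 and -0.55, all below the 0.89 of Il17a. In epithelial cells these chains had -0.246, -0.855 and -1.004, and in non-epithelial cells 0.699, 0.29 and 0.038. The intervals of Cd3d in epithelial and of Cd3g in non-epithelial cells include 0. The median over all genes was 0.122 in epithelial and 0.219 in non-epithelial cells. Of these cell sets, lower values of these chains were thus found in epithelial cells only, on the CPM scale. On mean counts per cell the lists were run over all cells together and not by set. Neither the number of T cells nor the RNA per T cell can be read from such sums.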

How the data were processed

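Per the labels, 5 µm skin sections were probed with a 480-gene Xenium panel and negative control probes. The deposited transcript tables hold 1 decoded molecule per line, with position, cell, nuclear overlap and a quality score (maximum 40). The deposited cell tables hold counts, which in all cells equal the number of gene transcripts that scored 20 or more. The labels name no decoding or segmentation software.

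Transcripts were summed over kept cells and scaled to the panel total (CPM). Cells were clustered without the 3 genes (log-scaled counts, 30 principal components, 15 neighbours, leidenalg 0.10.2 at resolution 1, python 3.11.15). A cluster is epithelial where keratinocyte markers make up at least 6% of its counts. It is named where at least 3 of a class's markers are among its 10 leading genes, and more than of any other class. A sebocyte name also needed the 6%, a rule added after seeing the data. No doublet caller was run. Intervals are exact (Poisson, conditional binomial, Clopper-Pearson). The arithmetic of count intervals and nearness was checked on simulated independent counts and on points placed at random or around planted centres. These simulations held no cells or tissue layers, so they do not check the intervals for such data. Strips are connected cells within 75 µm, at least 1000 per strip. Genes named are the 3, Kdm6a, the 5 most alike and the 5 nearest to each, and listed genes. The members and lists were chosen with earlier results of these data known. Alternatives are in the closing section.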

Additional observations from a re-analysis of the deposited data

How the results depend on the processing

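All values are log2 ratios of Utx-cKO over WT unless a count or nearness is named. Scores of at least 30 gave 0.62 for Il17a, 0.74 for Ccl20 and 0.0058 for Defb1 over all cells, 0.38 for Il17a and -0.32 for Defb1 in epithelial cells, 0.89 for Il17a in non-epithelial cells, and 20.6 times the highest probe for Defb1 in WT. Transcripts over nuclei gave 0.74 for Ccl20 over all cells and -0.41 for Defb1 in epithelial cells. Mean counts per cell shift every gene by -0.34 over all cells, and by other amounts in subsets, since Utx-cKO cells held fewer transcripts. They gave 0.55 for Il17a, 0.57 for Ccl20 and -0.50 for Defb1 over all cells, 0.70 for Ccl20 and -0.75 for Defb1 in epithelial cells, and 0.63, 0.32 and 0.14 for Il17a, Ccl20 and Defb1 in non-epithelial cells. On that scale 18 genes were past 1.5-fold higher and 75 lower in Utx-cKO, against 71 and 12. Centring on the median gave 46 and 20 genes, -0.25 for Defb1 over all cells, -0.62 in epithelial cells, and 0.90 and 0.59 for Il17a and Ccl20 in non-epithelial cells. All transcripts of the section gave 1.14, 1.15 and 0.051 for Il17a, Ccl20 and Defb1. Scaling on the control probes, added after seeing the data, gave 0.070, 0.089 and -0.98. Cells of at least 40 transcripts gave 0.59 for Ccl20 in non-epithelial cells. Nearness of Ccl20 to Il17a was 2.08 in WT within 10 µm, 1.21 in Utx-cKO and 1.19 in WT within 50 µm, 1.16 in Utx-cKO and 1.22 in WT in non-epithelial cells (intervals that include 1), and 1.14 in Utx-cKO and 1.36 in WT without upper hair follicle-like cells, a set added after seeing the data.

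Leaving out 1 strip at a time gave ranges over all cells of 0.59 to 1.12 for Il17a, 0.66 to 1.08 for Ccl20 and -0.50 to 0.52 for Defb1. In epithelial cells they were 0.49 to 1.16, 0.54 to 1.15 and -0.85 to 0.19. In non-epithelial cells they were 0.74 to 1.26, 0.47 to 1.06 and 0.30 to 1.01. In upper hair follicle-like cells they were -0.05 to 1.09, 0.22 to 1.44 and -0.98 to 0.32. Nearness of Ccl20 to Il17a ranged between 1.29 and 1.43 in Utx-cKO and between 1.35 and 1.81 in WT. The lowest Il17a and Ccl20 values over all cells came without strip 1 of WT. Defb1 changed sign without strip 3 of WT. Apart from the scaling on control probes, Il17a and Ccl20 stayed higher in Utx-cKO under every alternative run over all, epithelial and non-epithelial cells. That scaling was run over all cells only and left 0.070 for Il17a and 0.089 for Ccl20, without intervals. Causes of these shifts were not tested. No paired analysis was possible because each group is 1 section.

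Limits: there is 1 section per group, Il17a seldom exceeds 1 transcript per cell, and its level is 4.35 times the highest control probe in Utx-cKO, so its source cells are not resolved at this depth. The share of transcripts assigned to a neighbouring cell was not tested.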
